A study of Saccharomyces cerevisiae with 24 samples.

Results

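Yeast ribosomal RNA was read by nanopore direct RNA sequencing in cells exposed to hydrogen peroxide and in untreated cells, in total RNA that had not been separated on a gradient ("input"). The comparison used 2 H2O2 input libraries and 2 untreated input libraries, which are 4 of the 24 libraries of the series, and was chosen by their sample titles. All 4 came from the BY4741 laboratory strain (genotype WT) of *Saccharomyces cerevisiae*, grown in YPD medium at 30 °C to mid-exponential phase as biological duplicates. Treated cultures received 1 mM H2O2 for 30 min, whereas control cultures received none. Every culture of both groups was given cycloheximide, which stops translation elongation, before harvest. The labels' protocols name a commercial yeast RNA kit for these 4 samples, and also an aliquot of gradient lysate taken for total RNA. A position of an rRNA entered the comparison if it was covered by at least 50 reads in all 4 libraries, which left 5423 of 5475 positions. These were 1788 of 1800 in 18S, 3382 of 3396 in 25S, 146 of 158 in 5.8S and 107 of 121 in 5S rRNA.

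The ribosome is built on 4 rRNAs. The 18S rRNA forms the small subunit, and the 25S, 5.8S and 5S rRNAs form the large subunit. snoRNA-guided enzymes convert uridines to pseudouridine (Ψ) or methylate the ribose 2′-hydroxyl (Nm), and stand-alone enzymes modify a few bases. In direct RNA sequencing, modified nucleotides raise the rate of miscalled, inserted or skipped bases. A strand enters the pore 3′ end first, so reads that stop early leave coverage that falls towards the 5′ end. Expansion segment 7 is a large eukaryote-specific insertion in the 5′ part of 25S rRNA that lies on the surface of the large subunit. In yeast, cutting of 25S rRNA within this segment has been described in cells exposed to peroxide.

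The sequences on which the coverage and error results turn are given 5′ to 3′, with T for U as in the deposited reference base. In the first, from 25S positions 491 to 515, capitals mark the neighbouring positions between which upstream coverage changed most. In the second, from 25S positions 600 to 630, capitals mark the positions from 613 to 623, just before the downstream step. Coverage in H2O2 input replicate 1 stayed low there after falling over positions 610 to 613. In the third, from 25S positions 2131 to 2153, the capital marks the 1-methyladenosine m1A2142. In the fourth, from 18S positions 1771 to 1800, capitals mark the 5 positions near the 3′ end that the quasi-binomial model called for deletion. The groups overlapped at positions 1796 and 1797. In the fifth, from 25S positions 1114 to 1134, the capital marks Ψ1124.
Upstream flank of the 25S segment: ctgggccagcaTCagttttggtggc
Downstream flank of the 25S segment: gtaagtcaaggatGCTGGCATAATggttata
Neighbourhood of m1A2142: actgtctaattAaaacatagcat
3′ end of 18S: tccgtaggtgaacctgcggaaggaTCATTa
Neighbourhood of Ψ1124: tgggccatttTtggtaagcag

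Depth separated the libraries within each group. Median coverage over all positions was 861 reads in H2O2 input replicate 1 and 4322 in replicate 2, against 812 in untreated input replicate 1 and 8052 in replicate 2. Both replicates 1 are therefore shallow and both replicates 2 deep, and differences are also given within each depth. Mismatch frequencies of 2 libraries of a group differed by more than sampling noise, with a mean chi-square per position of 2.21 in H2O2 input and 1.66 in untreated input, where sampling noise alone gives 1. All 4 libraries therefore counted as separate samples. An exact two-sided permutation test over 2 against 2 libraries has 6 splits and cannot give a p below 0.333, so single values compared in that way cannot pass the threshold of 0.05.

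Coverage changed abruptly at the edges of a stretch of 25S expansion segment 7 in both treated libraries, and far less in the untreated ones. Between positions 623 and 624 coverage went up towards the 3′ side by 29 reads, to 640, in H2O2 input replicate 1 and by 86 reads, to 1396, in replicate 2. The same step was 2 reads, to 544, in untreated input replicate 1 and 9 reads, to 2543, in replicate 2. As a share of the reads at position 624, the step was 4.53% (Wilson 95% interval 3.17 to 6.43) and 6.16% (5.02 to 7.55) in treated libraries, against 0.37% (0.10 to 1.33) and 0.35% (0.19 to 0.67) in untreated libraries. The treated intervals lie above the untreated ones in both depths. Intervals cover counting error only.

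A further abrupt change lay upstream, between 25S positions 502 and 503. Coverage there went up by 2.60% (1.63 to 4.13) in H2O2 input replicate 1 and by 6.67% (5.36 to 8.27) in replicate 2, against 0.19% (0.03 to 1.10) in untreated input replicate 1 and 1.22% (0.84 to 1.77) in replicate 2. The treated interval is above the untreated one within each depth, and over all neighbouring positions of 18S and 25S both treated libraries exceeded both untreated ones at 11.9% and lay below both at 7.23%. Of 4996 such pairs of positions, 10 were separated by more than 0.5 percentage points with larger gains in treated libraries, and 7 of these lay in 25S between positions 448 and 625. A single pair was separated in the other direction, 25S positions 612 and 613. The lowest treated share and the highest untreated share have overlapping intervals.

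Coverage also dipped upstream of position 624, clearly in the shallow treated library and slightly in the deep one. In H2O2 input replicate 1 it was 666 reads at position 610, 610 at position 613 and 605 at its lowest, at position 618, and 647 at position 625. In replicate 2 it was 1271 reads at position 610, 1262 at position 613 and 1421 at position 625. In untreated input replicate 1 it was 540, 540 and 546 reads at these 3 positions, and in replicate 2 it was 2486, 2492 and 2543. A fall in coverage towards the 3′ side means that some reads covering position 605 did not cover the positions after it. From position 605 to the lowest point up to position 640 the loss was 9.57% of reads in H2O2 input replicate 1 and 1.79% in replicate 2, whereas in both untreated libraries the lowest point was position 605 itself. In replicate 2, coverage at position 620 was back above that at position 605, by 0.78%.

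**Figure D1:**
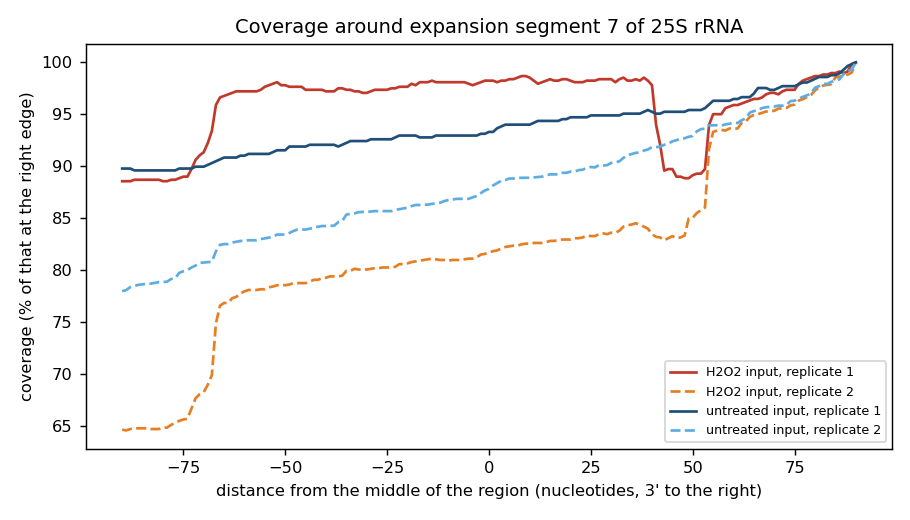
Coverage of 25S rRNA from 90 nucleotides before to 90 after position 570, as a percentage of coverage at the right edge, for each of the 4 libraries. Both H2O2 lines step up at about 54 nucleotides to the right and 67 to the left of the middle, and the line of H2O2 input replicate 1 has a trough before the right-hand step. Both untreated lines climb gradually.

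The search for such steps was made after the coverage profile of 25S had been seen. Over 20 positions, the log2 ratio of coverage at a position to coverage 20 positions upstream was compared at 5343 windows with limma. None was called (smallest adjusted p 0.805), although 61 windows had an unadjusted p below 0.05, and with trend and robust moderation 2 were called. Both treated libraries exceeded both untreated ones at 8.50% of windows and lay below both at 5.35%. Of 4999 windows more than 50 positions from an end, the 2 groups were separated by more than 0.03 log2 units at 42, all with larger steps in the treated libraries, and at 0 in the other direction. Of these 42, 31 lay between 25S positions 480 and 650, and they ended at positions 502 to 521 and 633 to 643. Consecutive windows overlap, so a single step fills many of them. Another 11 consecutive windows ended at positions 2143 to 2153. At a separation of 0.05 log2 units, 29 windows remained, all of them between positions 480 and 650.

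Net reads gained over 20 positions show the same places with larger counts. From position 496 to 516 the gain was 9.01% (7.06 to 11.42) and 16.18% (14.20 to 18.38) of reads in the treated libraries, against 1.55% (0.79 to 3.02) and 3.78% (3.07 to 4.65) in the untreated libraries. From position 622 to 642 it was 8.16% (6.31 to 10.49) and 10.30% (8.84 to 11.97) in treated libraries, against 2.35% (1.38 to 3.97) and 2.35% (1.84 to 3.01) in untreated libraries. The log2 difference of the steps was 0.16 for the first window (limma adjusted p = 1.0) and 0.11 for the next (adjusted p = 0.805). In neither window did the groups overlap, which follows from how the windows were chosen. For the same reason the sign could not turn when 1 library was left out. Leaving out 1 library at a time left the log2 difference between 0.10 and 0.22 in the first window and between 0.09 and 0.12 in the next. The number of windows called then ran from 43 without untreated input replicate 2 and 47 without untreated input replicate 1 to 63 without H2O2 input replicate 2 and 73 without H2O2 input replicate 1, with 1 degree of freedom among the samples.

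Other libraries of the series give a range for these steps. Of those that received no peroxide, 12 had at least 50 reads there. Their gain from position 622 to 642 ran from 1.44% to 5.48%, below both treated input libraries as point values. Intervals of shallow libraries among them overlap the treated ones. Replicate 1 of gradient fraction 4, the highest, had 4 of 73 reads (2.15 to 13.26). Replicate 2 of gradient fraction 2 had 4.66% (2.89 to 7.44). From position 496 to 516 the gain of the 12 libraries ran from 1.13% to 24.23% with a median of 2.08%. The upstream step was thus exceeded by a library without peroxide, replicate 2 of gradient fraction 2, with 71 of 293 reads. Between positions 623 and 624, the 12 libraries gained 0% to 2.82%. Replicate 1 of peroxide-treated fractions 3-4, the only other treated library deep enough there, gained 3.74% (2.55 to 5.47) between positions 623 and 624, and had 0.15% (0.03 to 0.86) between positions 502 and 503. As point values, the change near position 624 was thus above that range in all 3 treated libraries with sufficient depth, and the change near position 503 was not.

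A smaller rise in coverage lay over a window of 25S that holds Ψ2129, Ψ2133 and the m1A of position 2142. The enzyme Bmt2 methylates this adenine in the large subunit. From position 2126 to 2146 the gain was 5.43% (4.32 to 6.82) and 6.03% (5.52 to 6.58) of reads in H2O2 input, against 1.15% (0.66 to 2.00) and 2.19% (1.94 to 2.48) in untreated input. The treated values lie above both untreated values, a separation by which this window was chosen. As point values they also lie above the 0.87% to 3.39% of 14 other libraries without peroxide. In peroxide-treated fractions 3-4 the gain was 2.65% (1.98 to 3.54) in replicate 1, within that range, and 7.45% (4.82 to 11.34) in replicate 2, above it. The log2 difference of this window was 0.06 (limma adjusted p = 1.0). Only part of the gain lay next to m1A2142. Between positions 2142 and 2143 it was 1.27% and 1.12% in H2O2 input, against 0.19% and 0.53% in untreated input. Other libraries without peroxide reached 1.14% there. Between Ψ2129 and Ψ2133, coverage went from 1202 to 1215 and from 7251 to 7407 reads in H2O2 input. In untreated input it went from 1034 to 1036 and from 11195 to 11279 reads. The mismatch frequency of m1A2142 itself was 61.22% and 55.17% in H2O2 input, against 61.84% and 55.72% in untreated input, and split by depth. The other m1A of 25S, at position 645, had 44.19% and 56.13% in H2O2 input, against 45.13% and 54.58% in untreated input, with the same split by depth.

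**Figure D2:**
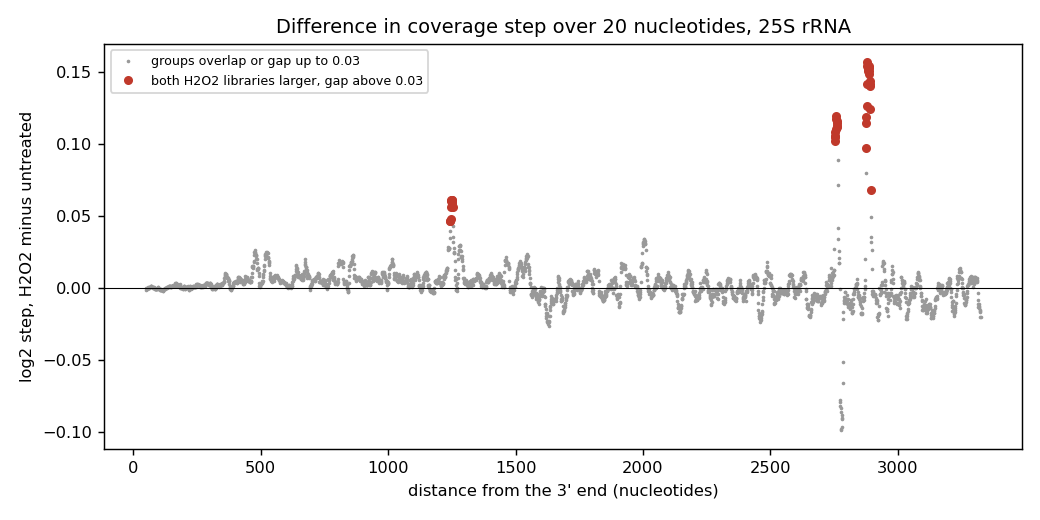
Difference between H2O2 and untreated input in the log2 coverage step over 20 nucleotides, for windows of 25S rRNA against distance from its 3′ end. Each point is the difference of 2 group means, and filled points are windows where both H2O2 libraries exceeded both untreated ones by more than 0.03. They form 3 groups, and the 2 farthest from the 3′ end lie at expansion segment 7.

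Averaged over wider stretches, the segment showed no difference that held in both depths. The log2 ratio of mean coverage over positions 500 to 600 to that over positions 620 to 720 was -0.03 and -0.31 in H2O2 input, against -0.10 and -0.22 in untreated input. The groups overlapped (difference of -0.005, exact permutation p = 1.0), with 0.08 between the shallow libraries and -0.08 between the deep ones. The sign of the difference turned without H2O2 input replicate 2 (0.14) and without untreated input replicate 1 (0.06). At grid position 575, coverage was 670 and 1253 reads in H2O2 input, against 533 and 2404 in untreated input. At grid position 625 it was 647 and 1421, against 546 and 2543. Their log2 fold changes of 0.10 ± 0.80 and 0.06 ± 0.75 (SE, edgeR's quasi-likelihood test, adjusted p = 0.998) were far smaller than their errors.

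The balance between rRNAs differed in the same direction in both depths for 18S. Mean coverage of 18S was 857 and 7828 reads per position in H2O2 input, against 927 and 13189 in untreated input, and that of 25S was 1090 and 8167, against 894 and 10279. On the log2 scale, 18S relative to 25S was at -0.35 and -0.06 in H2O2 input, against 0.05 and 0.36 in untreated input. The groups did not overlap. The ratio averaged -0.20 ± 0.20 in H2O2 input and 0.21 ± 0.22 in untreated input (SD, n = 2 each), a difference of -0.41 (exact permutation p = 0.333, 1.0 after Benjamini-Hochberg adjustment over 6 ratios). The difference was -0.40 between the shallow libraries and -0.42 between the deep ones. It stayed between -0.56 and -0.26 when 1 library was left out, with the smallest sizes without untreated input replicate 2 (-0.26) and without H2O2 input replicate 1 (-0.27). In the other 16 libraries with error tables the ratio ran from -0.14 to 0.83, so H2O2 input replicate 1 lay below all of them. Near the 3′ ends, where reads begin, coverage of 18S at position 1725 relative to 25S at position 3325 was lower by a similar amount in H2O2 input, a comparison chosen after seeing the data. That log2 ratio was -0.42 and -0.51 in H2O2 input, against 0.03 and -0.03 in untreated input. In the deep libraries, 25S coverage at position 3325 was 25136 reads in H2O2 input and 25154 in untreated input, nearly equal, and whether a limit on counted depth acted there was not tested.

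The small rRNAs of the large subunit gave less even results. For 5.8S, which pairs with 25S, the log2 ratio to 25S was -2.04 and -1.96 in H2O2 input, against -2.17 and -2.16 in untreated input. It averaged -2.00 ± 0.06 in H2O2 input and -2.17 ± 0.01 in untreated input (SD, n = 2 each), a difference of 0.17 with groups that did not overlap (exact permutation p = 0.333). With median in place of mean coverage the difference was 0.41. In the 16 other libraries the ratio ran from -4.66 to 1.85, a far wider span. For 5S, which is transcribed separately from the other rRNAs, it was -2.06 and -1.59 in H2O2 input, against -3.80 and -1.38 in untreated input. These groups overlapped (difference of 0.77, exact permutation p = 1.0). The low value belonged to untreated input replicate 1, with a mean of 64 reads on 5S. Without it, the 5S difference was -0.45.

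**Figure D3:**
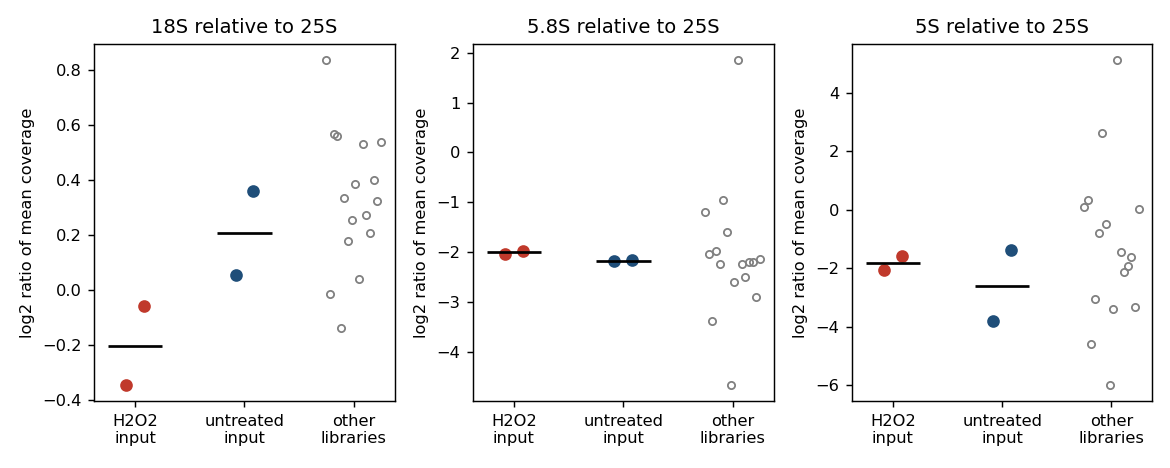
Log2 ratio of mean coverage of 18S, 5.8S and 5S rRNA to that of 25S, with 1 point per library, a line at each group mean and the 16 other libraries as open points. Both H2O2 input points lie below both untreated input points for 18S and above them for 5.8S, and the groups overlap for 5S.

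The decline of coverage towards the 5′ end differed more between shallow and deep libraries than between treatments. Depth coincides with replicate number, so depth and other differences between the replicates cannot be told apart here. Coverage at 25S position 75 was 26.3% and 2.80% of that at position 3325 in H2O2 input, against 28.9% and 5.40% in untreated input. At 18S position 75 it was 36.3% and 12.9% of that at position 1725 in H2O2 input, against 33.5% and 22.0% in untreated input. The deep libraries lost more coverage than the shallow ones in both groups, and the deep treated library lost the most.

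Ratios of the first to the last 20% of positions, leaving out 50 positions at each end, showed the same order. For 25S, the log2 ratio was -1.61 and -4.49 in H2O2 input, against -1.52 and -3.60 in untreated input (difference -0.49, exact permutation p = 0.667). For 18S, it was -1.30 and -2.65 in H2O2 input, against -1.39 and -1.99 in untreated input (difference -0.28, exact permutation p = 1.0). The groups overlapped in both rRNAs. The sign turned without H2O2 input replicate 2, to 0.94 for 25S and 0.40 for 18S. It also turned without untreated input replicate 1, to 0.55 for 25S and 0.02 for 18S. At 25S position 2125 each treated library lay below the untreated library of the same depth. Coverage there was 67.6% and 28.7% of that at position 3325 in H2O2 input, against 74.7% and 44.4% in untreated input.

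**Figure D4:**
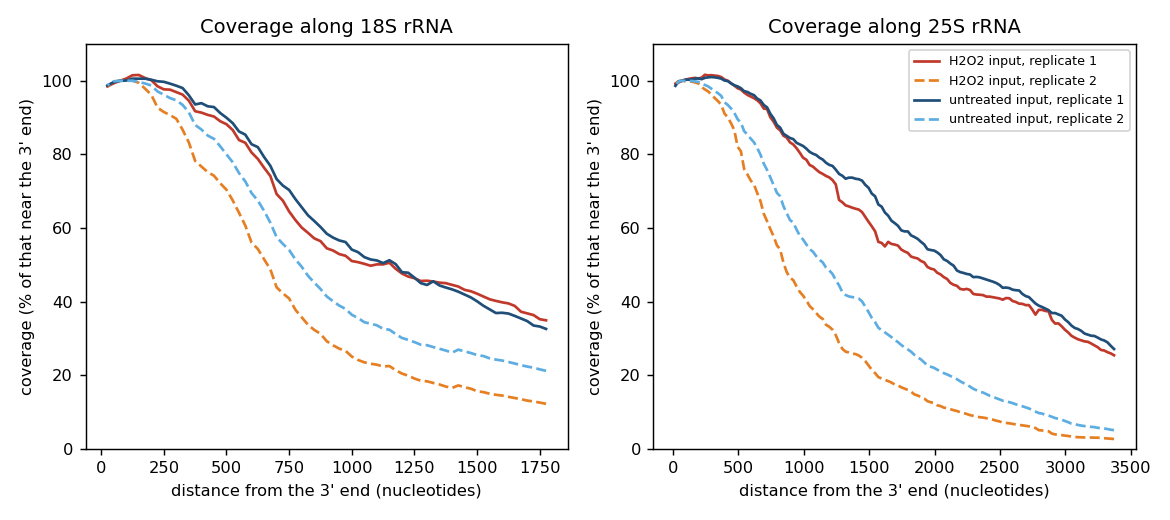
Coverage along 18S and 25S rRNA as a percentage of coverage near the 3′ end, against distance from the 3′ end, for each of the 4 libraries. Both replicates 2, which are the deep libraries, decline faster than both replicates 1, and H2O2 input replicate 2 declines fastest.

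A test of coverage at 109 positions spaced by 50 called none, either between all rRNAs (0% of positions, smallest adjusted p 0.998) or after each rRNA was scaled by its own mean coverage (0%, smallest adjusted p 0.956). In both, 0 positions had an unadjusted p below 0.05 with edgeR's quasi-likelihood test, and DESeq2 also called 0. Fitted log2 fold changes were below 0 at 30 of 36 grid positions of 18S (median -0.28) and above 0 at 63 of 68 of 25S (median 0.06). The 5 lowest p-values all belonged to 18S, from position 775 to 975. At position 825, coverage was 697 and 4696 reads in H2O2 input, against 795 and 9386 in untreated input, a log2 fold change of -0.30 ± 0.15 (SE, edgeR adjusted p = 0.998). As shares of all grid coverage these are 0.652% and 0.550% in treated libraries, against 0.834% and 0.786% in untreated libraries, without overlap.

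At the ends of the rRNAs, log2 fold changes were within 1 SE of 0. They were -0.33 ± 0.51 and 0.07 ± 0.59 at the first and last grid position of 18S, and 0.07 ± 1.24 and 0.56 ± 0.99 at those of 25S. They were 0.46 ± 1.00 and 0.44 ± 0.96 in 5.8S, and 0.59 ± 1.04 and 0.59 ± 1.03 in 5S (SE, edgeR adjusted p = 0.998 each).

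Base-call errors were compared next, at known modified sites and elsewhere. All 113 listed sites had sufficient coverage, 45 Ψ, 56 Nm and 12 base-modified, and their error values in the 2 groups were close. The mean mismatch over Ψ sites was 47.9% and 47.4% in H2O2 input, against 47.9% and 47.5% in untreated input. The mean insertion over Nm sites was 22.7% and 22.1% in H2O2 input, against 22.2% and 22.2% in untreated input. The mean mismatch over base-modified sites was 25.2% and 24.8% in H2O2 input, against 24.4% and 24.6% in untreated input. Only the last of these 3 sets did not overlap, and its nearest libraries, both deep, were 0.19 percentage points apart. With medians over sites in place of means, the difference between groups turned to -0.41 points for base-modified sites, and was 1.28 points for Ψ sites and 0.56 for insertions at Nm sites.

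No position was called for mismatch in either direction (0% of 5421, quasi-binomial model, smallest adjusted p 0.0594), although 223 had an unadjusted p below 0.05. Limma on empirical logits also called 0, with 191 below 0.05. Without H2O2 input replicate 1 the count was 9, and without untreated input replicate 1 it was 8. No known site was called for mismatch, insertion, deletion or base quality. Both treated libraries had higher mismatch than both untreated ones at 21.8% of all positions and lower mismatch at 6.93%. At Ψ sites the groups were separated in these directions at 2 and 1 of 45 sites, and at base-modified sites at 1 and 0 of 12. At Nm sites, 3 of 56 were higher and 11 lower in both treated libraries. The median difference was -0.04 percentage points over Ψ sites, -0.16 over Nm sites and 0.27 over base-modified sites, beside 0.10 over all positions.

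Among pseudouridines, Ψ1124 of 25S had the largest difference in mismatch. It was 36.13% and 38.86% in H2O2 input, against 42.14% and 41.02% in untreated input, without overlap (difference of -4.09 points, quasi-binomial adjusted p = 0.979). The groups overlapped at 3 of the next 4. Ψ466 of 18S had 47.82% and 50.69% in H2O2 input, against 56.56% and 48.43% in untreated input. Ψ73 of 5.8S had 37.33% and 44.47% in H2O2 input, against 45.16% and 42.42% in untreated input. These spreads between replicates are as large as the differences between groups.

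Ψ2264 of 25S, guided by snR3, had 63.25% and 65.25% in H2O2 input, against 57.98% and 65.03% in untreated input. Ψ211 of 18S had 58.00% and 59.20% in H2O2 input, against 54.68% and 57.85% in untreated input, separated by 0.16 points. At Ψ2264, untreated input replicate 1 lay below the other 3 libraries.

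Among 2′-O-methylated sites, Gm1450 of 25S differed most in mismatch, with 7.18% and 8.15% in H2O2 input, against 12.93% and 8.23% in untreated input. Am974 of 18S averaged 25.03% in H2O2 input and 27.27% in untreated input, with 25.88% in the deep untreated library and a separation of 0.82 points. Am876 of 25S had 12.80% and 12.58% in H2O2 input, against 15.54% and 13.24% in untreated input. In all 3 the shallow untreated library was the highest, and the deep untreated library lay within 1 point of a treated one. Um2417 and Am649 of 25S differed by -1.71 and -1.66 points with overlapping groups. None had an adjusted p below 0.979.

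Insertions at Nm sites were as close. Um898 of 25S had 24.59% and 28.37% in H2O2 input, against 27.97% and 29.84% in untreated input, with overlap. Am876 had 10.01% and 8.38% in H2O2 input, against 6.12% and 8.09% in untreated input, separated by 0.29 points. Um578 of 18S had 47.99% and 43.63% in H2O2 input, against 46.23% and 41.73% in untreated input, with overlap (adjusted p = 0.999 for each).

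The base-modified sites with the largest differences all lie in 18S, around the decoding and P-site region. The hypermodified uridine m1acp3Ψ1191 had a mismatch of 52.51% and 45.44% in H2O2 input, against 46.87% and 46.91% in untreated input. The first of the adenines that Dim1 dimethylates near the 3′ end, m62A1781, had 43.89% and 32.16% in H2O2 input, against 39.74% and 32.35% in untreated input. In both, the spread within the treated pair exceeded the difference between groups.

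The m7G1575 that Bud23 methylates had 47.06% and 46.23% in H2O2 input, against 44.30% and 46.88% in untreated input. The acetylated ac4C1773 had 4.13% and 7.94% in H2O2 input, against 4.50% and 5.82% in untreated input (quasi-binomial adjusted p = 0.349). Both groups overlapped at these sites.

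In the functional centres of the ribosome, the treated and untreated ranges overlapped. Over 5 sites of 25S helix 69, which contacts both tRNA and the small subunit, mean mismatch was 52.0% and 52.9% in H2O2 input, against 50.9% and 52.8% in untreated input. Over 13 sites around the peptidyl transferase centre, where peptide bonds form, it was 38.9% and 38.3%, against 38.1% and 38.7%. Over 8 sites of the decoding and P-site region of 18S it was 25.5% and 23.4%, against 24.0% and 23.1%. Of the 26 sites in these regions, 1 was separated in mismatch, Cm2948 of 25S, with 4.77% and 4.94% in H2O2 input, against 5.10% and 5.16% in untreated input. Over all positions, mismatch was higher in both treated libraries at 21.8% and lower at 6.93%.

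Single sites of these centres illustrate the closeness. In helix 69, Ψ2258 had 79.53% and 81.73% in H2O2 input, against 80.07% and 80.99% in untreated input, and Ψ2260 had 21.62% and 19.25%, against 22.50% and 19.88%. In the peptidyl transferase centre, Um2921 had 80.73% and 76.11%, against 77.26% and 77.70%, and Ψ2923 had 46.66% and 44.96%, against 45.01% and 46.00%. In the decoding region, Ψ1187 of 18S had 22.87% and 21.01%, against 21.29% and 20.32%.

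**Figure D5:**
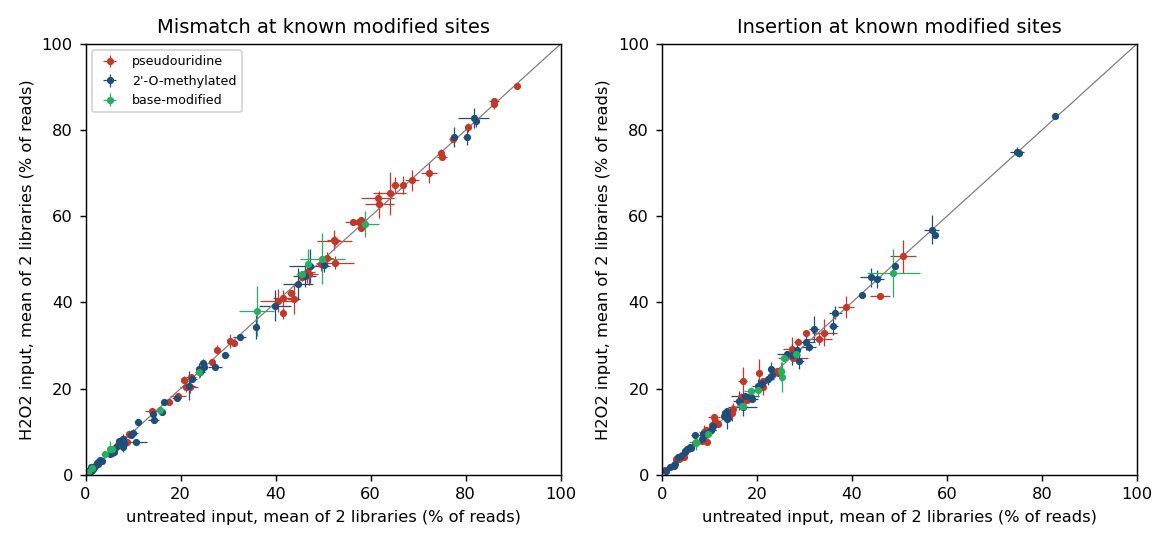
Mismatch and insertion at the 113 known sites, with the mean of the 2 H2O2 input libraries on the vertical axis and that of the 2 untreated input libraries on the horizontal axis, in percent of reads. Bars span the 2 libraries of a group and the line marks equality, along which the sites of all 3 kinds lie.

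Away from known sites, more positions had higher than lower mismatch in both treated libraries in 25S and in 18S, with a larger median difference in 25S. The difference between these rRNAs was not tested. At unmodified positions, at least 6 positions from any known site, 773 of 2818 positions of 25S (27.4%) had higher mismatch in both treated libraries and 153 (5.43%) lower. In 18S these were 244 (16.9%) and 108 (7.48%) of 1443. The median difference was 0.15 percentage points in 25S and 0.02 in 18S. In 5S it ran the other way, with 24 of 96 positions lower and 7 higher in both treated libraries.

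Within 18S and 25S, the mismatch difference was largest in the 5′ part of 25S. Differences in 5S were larger in size and of opposite sign. Over 107 positions of 5S, mean mismatch differed by -0.556 points with overlap and mean deletion by -0.896 points without overlap. Over 25S positions 1 to 600, mean mismatch was 2.74% and 2.76% in H2O2 input, against 2.35% and 2.41% in untreated input. Mean insertion there was 4.78% and 4.62%, against 4.41% and 4.36%, and mean deletion was 4.52% and 4.54%, against 4.01% and 4.19%. The groups did not overlap in any of these 3 measures. Over 25S positions 601 to 3396, mean mismatch was 4.34% and 4.41% in H2O2 input, against 4.15% and 4.33% in untreated input. Over the first 600 positions of 18S it was 4.08% and 4.21%, against 4.18% and 4.06%, with overlap.

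Of 17 successive windows of 200 positions in 25S, 9 had higher mean mismatch in both treated libraries and 8 overlapped, and the 9 included the first 4 from the 5′ end. In 18S, 1 of 9 windows was higher. In the first window of 25S, mean mismatch was 3.02% and 3.24% in H2O2 input, against 2.65% and 2.75% in untreated input. At the 3′ end of 25S, from position 3201, it was 2.88% and 3.48%, against 2.93% and 3.29%, and separated by depth. Coverage in the 5′ part of 25S was lower than near the 3′ end in all 4 libraries, and most so in the deep ones. At position 75 it was 2.80% of that near the 3′ end in deep H2O2 input and 5.40% in deep untreated input. In the shallow libraries it was 26.3% and 28.9%. The part of coverage in these error values was not tested.

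By base, guanine showed the clearest separation at unmodified positions. Guanine is the base most readily oxidised, but neither a difference between bases nor a part of oxidation in these values was tested. Over 1245 unmodified guanines, mean mismatch was 2.34% and 2.42% in H2O2 input, against 2.24% and 2.25% in untreated input. It averaged 2.38% ± 0.06 in H2O2 input and 2.25% ± 0.004 in untreated input (SD, n = 2 each), a difference of 0.14 percentage points. The difference was 0.108 points for adenine, 0.11 for cytosine and 0.105 for uridine. Adenine also did not overlap, with 2.66% and 2.75% in H2O2 input, against 2.54% and 2.66% in untreated input over 1184 positions. The adenine values of the nearest libraries differed by less than 0.01 points.

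Cytosine had 3.23% and 3.40% in H2O2 input, against 3.17% and 3.24% in untreated input. Uridine had 3.49% and 3.80% in H2O2 input, against 3.44% and 3.64% in untreated input. Both overlapped. All 4 bases were higher in the treated library of each depth, by 0.05 to 0.17 points. The exact permutation p was 0.333 for guanine and adenine and 0.667 for cytosine and uridine, and 0.667 for all 4 after Benjamini-Hochberg adjustment. The uridine difference turned to -0.05 without H2O2 input replicate 2.

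The quasi-binomial model called 3 positions for insertion (0.0553% of 5423) and 8 for deletion (0.148% of 5418), nearly all at the 3′ end of an rRNA. In simulated data whose extra variance grew with depth, most calls of this model were false, unlike those of limma on empirical logits. With constant extra variance, 4.76% to 7.41% of this model's calls were false for the 3 error measures, against 1.08% to 3.64% for limma. There the model recovered 100% of the positions set to differ, and limma 46% to 65%. Those positions were set to differ by 10 percentage points, and recovery of smaller differences was not simulated. The median absolute difference between groups over all positions was 0.366 points for insertion and 0.247 for deletion. Which setting of the extra variance is closer to these libraries was not tested. Limma on empirical logits called 0 positions for both measures, with 152 and 138 positions at an unadjusted p below 0.05, beside 158 and 197 with the quasi-binomial model. With 10 positions at each end of every rRNA left out, the model called 0 insertions and 0 deletions. Of all positions, both treated libraries were higher in insertion at 18.6% and lower at 7.41%, and in deletion at 15.7% and 8.74%.

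The called positions of 18S were adjacent. Insertion at position 1799 was 0.83% and 3.37% in H2O2 input, against 9.31% and 6.66% in untreated input (adjusted p = 3.02e-05). At position 1798 it was 4.83% and 8.64%, against 12.05% and 11.16% (adjusted p = 0.0345). Deletion at position 1798 was 8.64% and 5.26% in H2O2 input, against 2.94% and 1.89% in untreated input (adjusted p = 1.33e-06). At these positions the groups did not overlap, with fewer insertions and more deletions in both treated libraries.

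Deletion at 18S position 1799 was 19.17% and 18.41% in H2O2 input, against 16.53% and 11.72% in untreated input (adjusted p = 1.99e-06). At position 1795 it was 3.55% and 4.64%, against 2.83% and 3.02% (adjusted p = 0.0133). At positions 1796 and 1797 the model also called more deletions, by 3.17 and 2.59 points, but the groups overlapped. Coverage falls steeply over these last positions, and at position 1799 it was 725 and 10293 reads in H2O2 input, against 956 and 13519 in untreated input.

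The remaining calls lay in 25S and 5S. Deletion at 5S position 118 was 19.86% and 23.76% in H2O2 input, against 33.85% and 30.34% in untreated input, without overlap (adjusted p = 0.00686). It rests on 65 reads in untreated input replicate 1. Deletion at 5S position 115 was 9.46% and 10.76%, against 8.45% and 17.00%, and insertion at 25S position 3393 was 1.64% and 2.26%, against 2.17% and 3.48%. Deletion at 25S position 3328 was 28.68% and 32.75%, against 27.62% and 28.77%. These last 3 overlapped.

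Counts of calls depended on single libraries. Insertion calls numbered 10 without H2O2 input replicate 1, 9 without H2O2 input replicate 2 and 12 without untreated input replicate 2. Deletion calls numbered 36 without H2O2 input replicate 1, 48 without H2O2 input replicate 2 and 4 without untreated input replicate 2. Without H2O2 input replicate 2 the sign turned for deletion at 18S position 1796 and 25S position 3328. Without untreated input replicate 2 it turned for deletion at 5S position 115 and insertion at 25S position 3393.

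The positions with the lowest p for mismatch were 5S positions 54 and 112, 18S position 1795 and 25S positions 1868 and 127. At 5S position 54, mismatch was 4.05% and 4.68% in H2O2 input, against 8.22% and 8.37% in untreated input (quasi-binomial adjusted p = 0.0594), with 73 reads in untreated input replicate 1. At 5S position 112 it was 0.68% and 0.91%, against 2.82% and 2.55%. At 25S position 127, a guanine, it was 7.32% and 7.25%, against 4.36% and 3.32% (adjusted p = 0.279). At 25S position 1868, also a guanine, it was 1.41% and 0.99%, against 0.63% and 0.28%. The groups did not overlap at any of these, and no call was made.

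Base quality was not called at any of 5423 positions (0%, limma, smallest adjusted p 1.0), with 220 at an unadjusted p below 0.05. Without H2O2 input replicate 2 the count was 58. Both treated libraries had higher quality at 5.38% of positions and lower quality at 15.4%. The lowest p-values belonged to 5S positions 103 and 102 and 25S positions 33, 173 and 3385. At 5S position 103 the mean score was 19.93 and 19.56 in H2O2 input, against 17.20 and 17.54 in untreated input. At 25S position 173 it was 24.59 and 24.69, against 26.51 and 26.55. Quality was thus lower in the treated libraries at the 2 named positions of the 5′ part of 25S, and higher at those of 5S. Over that whole 5′ part, quality was lower in both treated libraries at 417 of 586 positions (71.2%) and higher at 0. In the rest of 25S it was lower at 370 of 2796 (13.2%) and higher at 105 (3.76%). At unmodified positions of 5S it was higher at 69 of 96 (71.9%) and lower at 0. At those of 18S it was higher at 44 and lower at 41 of 1443. The differences between these regions were not tested.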

How the data were processed

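Nanopore direct RNA libraries of total RNA were compared, 2 from cells given H2O2 and 2 from untreated cells. Per the file headers, the deposited tables, which their names assign to EpiNano, give for each rRNA position the coverage as a raw count of reads, the mismatch, insertion and deletion values as a fraction of those reads, and the mean base quality as a score. The sources used here do not name the basecaller, aligner or build, and no chromosome coordinates are printed. Fractions times coverage gave whole reads at 100% of positions (tolerance 0.001).

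Positions needed 50 reads in all 4 libraries. At each position, reads with and without an error entered a quasi-binomial model whose dispersion was moderated by limma's squeezeVar and floored at 1. Quality was fitted with limma 3.58.1, and coverage at every 50th position with edgeR 4.0.16 (quasi-likelihood test, TMM), also with an offset for each rRNA's mean coverage, in R 4.3.3. DESeq2 1.42.0 and limma on empirical logits were alternatives. P-values were Benjamini-Hochberg adjusted at 0.05. Single values were tested by two-sided exact permutation, and single-library shares have Wilson 95% intervals. Python 3.11.15, pandas 2.3.3 and scipy 1.17.1 did the remainder.

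Known sites (113, listed by hand from textbook knowledge) fitted the reference base at all 113 after Um2921 and Gm2922, first entered in swapped order, were corrected against it. Members, lists and tests were chosen with earlier results of these data known. Named positions are all called ones up to 10, or the 5 with the lowest p where none was called, and the sites of each kind with the largest differences. The expansion segment 7 positions, the last-position calls and the coverage step test were described after the values were seen. Each model was also tested on simulated data with the coverages of these libraries. Where the extra variance grew with depth, most quasi-binomial calls were false, whereas few of limma's calls on empirical logits were. Where the extra variance was constant, 4.76% to 7.41% of quasi-binomial calls were false. Limma on empirical logits then recovered 46% to 65% of the positions set to differ, against 100% with the quasi-binomial model. The simulated error differences were 10 percentage points, and smaller ones were not simulated. P-values measure the spread between these libraries only.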

Additional observations from a re-analysis of the deposited data

How the results depend on the processing

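Each alternative changed 1 choice at a time. Mismatch calls were 1 after a shift to a common median error, against 0. Insertion calls, 3 in the report, were 16 with the replicate block, 0 when all 8 libraries of the peroxide experiment were fitted together, 0 on empirical logits and 0 without 10 positions at each end. Deletion calls, 8 in the report, were 5 at a minimum of 200 reads, 0 with the replicate block, 1 with 8 libraries, 0 on empirical logits, 0 without 10 positions at each end and 5 without 5S. With the replicate block, base quality had 14 calls, grid coverage 18 and coverage within each rRNA 2, against 0 in each. Coverage steps had 2 calls with trend and robust moderation, against 0. Medians over sites moved the Ψ mismatch difference to 1.28 points, the Nm insertion difference to 0.56 and the base-modified mismatch difference to -0.41.

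The labels call the cultures biological duplicates but do not pair the numbers, which coincide with depth. Deviations of same-numbered libraries correlated across positions at 0.45 to 0.51 for the error features and quality, and at 0.93 for grid coverage, so the block removes depth as well. For the 6 coverage ratios and 4 base means the block cannot change the difference, because the design is balanced, so it gives no check of them.

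Leaving out 1 library, mismatch calls ran from 0 to 9, insertion from 4 to 12, deletion from 4 to 48, quality from 0 to 58, and steps from 43 to 73. Differences ran from -0.45 to 1.98 for 5S to 25S, -0.96 to 0.40 and -1.93 to 0.94 for 5′ to 3′ coverage of 18S and 25S, -0.14 to 0.14 across expansion segment 7, and -0.053 to 0.26 for mismatch at uridine. Log odds ran from -0.75 to 0.024 for insertion at 25S position 3393, and for deletion from -0.024 to 0.44 at 18S position 1796, -0.002 to 0.23 at 25S position 3328 and -0.66 to 0.26 at 5S position 115. Grid log2 fold changes ran from -0.997 to 0.86 at 25S position 575 and from -0.86 to 0.79 at position 625, and scaled within 25S from -1.43 to 0.71 and from -1.30 to 0.63. With the replicate block they were -0.015 at position 575 and -0.005 at position 625, where library size alone gave -0.026. The cause was not tested in any of these cases. Untested means changed sign for Ψ mismatch (-0.25 to 0.19) and Nm insertion (-0.13 to 0.43), as did 10 of the 17 differences at named known sites. Depth limits 5S most, with a mean of 64 reads in untreated input replicate 1.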
